A study of Homo sapiens with 6 samples.

Results

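The transporters that carry amino acids across the plasma membrane were examined in NCI-H660 cells given pyrvinium pamoate (PP) or phosphate-buffered saline (PBS). The set was a list of 10 genes chosen by symbol, with earlier results of these data known. Of these, 9 were found among the 17177 genes of the expression table. They were *SLC3A2*, *SLC7A5*, *SLC7A11*, *SLC7A1*, *SLC1A4*, *SLC1A5*, *SLC38A1*, *SLC38A2* and *SLC6A9*. The remaining gene, *SLC7A3*, which encodes a cationic amino acid transporter, had no row and was not analysed here. The cells, NCI-H660, are an established human line from a neuroendocrine prostate cancer, and PP is an anthelmintic that the study used as an inhibitor of the RNA-binding protein ELAVL3. RNA was sequenced on day 3 from 3 libraries of PP-treated cells and 3 libraries of PBS-treated cells. The concentration of PP in this experiment was not given in the sources used here. The libraries come from 1 cell line, and the labels do not say whether the cultures were separate. The study describes the samples as independent in a legend but its methods speak of duplicates in each group, so the P values measure the spread between these libraries, which may be technical.

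Amino acids cross the cell membrane through carriers of several solute carrier (SLC) families, most of which take a group of related amino acids. Some are exchangers that bring in 1 amino acid for another, and some use the sodium gradient to build up amino acids inside the cell. Several of these genes are known targets of ATF4, the transcription factor that is translated when amino acids are short or when the endoplasmic reticulum or mitochondria are stressed. Cystine brought in by SLC7A11 feeds glutathione synthesis, and leucine and arginine brought in by SLC7A5 and SLC7A1 are sensed by the kinase complex mTORC1.

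All 9 measured transporters were higher in PP-treated cells. Values are FPKM (fragments per kilobase of transcript, scaled to the mapped fragments of each library), and changes are limma log2 fold changes of FPKM + 1, PP minus PBS, which understate the change of genes with low values. All 9 members passed the filter, a mean of 1 FPKM or more across the 6 libraries, and 9 rose and 0 fell at an adjusted p under 0.05 (limma, Benjamini-Hochberg). Of the 11726 genes tested, 38.1% were higher and 34.4% lower by the same rule. For the 9 members every PP library lay above every PBS library, which was also the case for 39.5% of all genes tested. The median log2 fold change of the members was 0.76, against 0.02 over all genes tested. The members, and the lists of related genes below, were chosen with earlier results of these data known. These shares and medians are therefore a description and not a test of the set. At the cutoff of the study's methods, P under 0.001 and a log2 fold change above 1, *SLC6A9* and *SLC3A2* passed, where 2.24% of all genes passed as higher and 2.93% as lower.

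**Figure D1:**
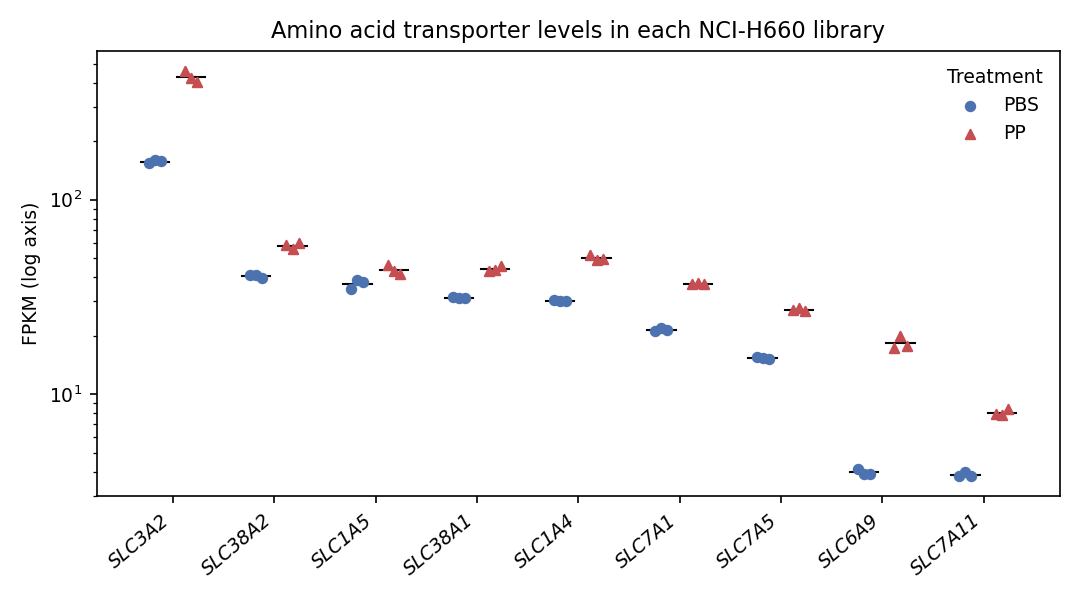
FPKM of the 9 measured transporters in each library on a log axis, with 1 point per library and a bar at the mean of the 3 libraries of each treatment. For each gene the 3 PP points lie above the 3 PBS points, with the smallest distance at *SLC1A5* and the largest at *SLC6A9*.

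Promoter sequences of the members were searched for the letters of 2 motifs, since the members rose together. These were the CCAAT-enhancer binding protein and ATF response element (CARE), spelled TGATGNAA, which ATF4 is known to bind, and the E-box CACGTG, which MYC family factors are known to bind. RefSeq windows on GRCh38.p14, from 250 bases before to 50 bases after each annotated start site, were available for 8 members and numbered 14, because a gene can have several starts. Both strands were searched, and the motifs did not overlap in any window shown. CARE letters were present in 5 of the 14 windows, belonging to 5 members, against 3.62% of all 35116 windows of this length. E-box letters were present in 2 of the 14 windows, belonging to 2 members, against 7.26% of all windows. The members were chosen with earlier results known, and several are known ATF4 targets. These shares are therefore a description and not a test. The stretches around the matches are shown because they are the promoter positions of the members where these letters occur. They are written 5′ to 3′ on the strand of the gene, with the match in capitals, and a match on the other strand appears as the reverse complement.
SLC3A2, chr11:62881719-62881748, plus strand, CARE: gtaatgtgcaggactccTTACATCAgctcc
SLC7A1, chr13:29595659-29595707, minus strand, CARE: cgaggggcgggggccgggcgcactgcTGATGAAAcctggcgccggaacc
SLC1A4, chr2:64989366-64989425, plus strand, CARE: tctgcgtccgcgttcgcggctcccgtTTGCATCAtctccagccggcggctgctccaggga
SLC38A1, chr12:46266487-46266546, minus strand, CARE: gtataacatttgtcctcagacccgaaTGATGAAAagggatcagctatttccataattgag
SLC1A5, chr19:46784878-46784937, minus strand, CARE: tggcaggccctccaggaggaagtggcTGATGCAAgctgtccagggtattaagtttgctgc
SLC1A5, chr19:46787312-46787369, minus strand, E-box: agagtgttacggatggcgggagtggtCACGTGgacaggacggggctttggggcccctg
SLC7A5, chr16:87869606-87869663, minus strand, E-box: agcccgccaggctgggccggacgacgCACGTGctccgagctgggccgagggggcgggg
The CARE letters began 37 bases downstream of 1 of the 3 start sites of *SLC3A2* and 7 bases downstream of the only start site of *SLC7A1* searched. They began 7 bases upstream of 1 of the 2 starts of *SLC1A4* and 4 bases upstream of 1 of the 2 starts of *SLC38A1*. In *SLC1A5* they began 97 bases upstream of 1 of its 3 starts. The other windows of *SLC3A2*, *SLC1A4* and *SLC38A1* held neither motif. The E-box letters lay 130 bases upstream in *SLC7A5* and 50 bases upstream of another start of *SLC1A5*. The windows of *SLC6A9* and *SLC38A2* held neither motif, although *SLC6A9* had the largest change of the members. A match describes letters in a window and is not evidence of binding.

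The depth of the libraries was 29064154 to 32481049 counts, recovered from the steps of the FPKM values, and the highest total was 11.8% above the lowest. The labels name the line NCI-H660, which the study describes as derived from neuroendocrine prostate cancer, and the cells carried neuroendocrine markers. In PBS libraries *CHGA*, the secretory granule protein chromogranin A, was at 42.4 to 44.1 FPKM and the synaptic vesicle gene *SYP* at 29.5 to 32.4 FPKM. Of 7 neuroendocrine markers tested, 5 were lower and 1 higher in PP libraries by limma, with *CHGA* at 23.5 to 25.5 FPKM (log2 fold change -0.78). By the same rule 34.4% of all genes tested were lower and 38.1% higher. Of the 5 lower calls among the markers, that of *ENO2* was lost in 5 of 15 alternative settings, with adjusted p up to 0.0771. Among these settings were those without PBS replicate 2 or 3 or without PP replicate 3. Summed levels of 4 immune markers were 1.475 to 1.87 FPKM in PBS and 1.333 to 1.888 FPKM in PP, those of 4 fibroblast markers 3.965 to 4.379 and 4.399 to 4.773 FPKM, and those of 3 endothelial markers 4.246 to 4.689 and 2.956 to 3.378 FPKM. Of these lists *PTPRC*, *PDGFRB* and *PECAM1* were each at or below 0.02039 FPKM, whereas 1 gene of each list passed the filter and made up most of its sum. These were *CD14* (1.44 and 1.47 FPKM, limma adjusted p = 0.885), *COL1A1*, which rose from 3.30 to 4.16 FPKM (limma adjusted p = 0.002), and *CDH5*, which fell from 3.379 to 3.982 FPKM in PBS libraries to 2.265 to 2.774 FPKM in PP libraries (limma adjusted p = 0.00112). Below the filter, *COL1A2* of the fibroblast list moved against *COL1A1*, from 0.769 to 0.417 FPKM. The endothelial gene *VWF*, also below it, moved with *CDH5*, from 0.812 to 0.5795 FPKM. The sum of the fibroblast list thus joins genes that moved in opposite directions. In bulk RNA, fewer cells with a transcript and less of it per cell cannot be told apart, and the part of these marker changes in the transporter changes was not tested.

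*SLC3A2* encodes the heavy chain 4F2hc, also called CD98, which holds the light chains SLC7A5, SLC7A11 and several others at the cell surface. It had 154.5, 159.2 and 157.4 FPKM in the PBS libraries and 459.2, 420.9 and 403.8 FPKM in the PP libraries. It was the most abundant member in every library, and its lowest PP value was far above its highest PBS value. The mean rose from 157 ± 2.38 to 428 ± 28.4 FPKM (SD, n = 3), a ratio of 2.73, with a log2 fold change of 1.44 (SE 0.04, limma adjusted p = 1.53e-09). Among the 181 SLC genes tested, its mean level rose from rank 2 in PBS cells to rank 1 in PP cells.

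*SLC7A5* encodes LAT1, the light chain that exchanges leucine and other large neutral amino acids. Its FPKM was 15.5, 15.3 and 15.3 in PBS and 27.1, 27.7 and 26.8 in PP. The libraries of each treatment were close together, and the means of 15.4 ± 0.114 and 27.2 ± 0.447 FPKM (SD, n = 3) gave a log2 fold change of 0.79 (SE 0.04, limma adjusted p = 4.07e-08). The annotation holds 2 pseudogenes named for it, *SLC7A5P1* and *SLC7A5P2*, which had no row here, so its level is uncertain as far as reads were split with them.

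*SLC7A11* encodes xCT, the light chain that takes up cystine in exchange for glutamate. It was one of the least abundant members, at 3.82, 3.97 and 3.804 FPKM in PBS and 7.91, 7.81 and 8.42 FPKM in PP, which corresponded to 1134 to 1158 and 2300 to 2689 recovered counts. The 2 groups were clearly separate, and the FPKM ratio was 2.08 with a log2 fold change of 0.90 (SE 0.05, limma adjusted p = 1.77e-07). This change lay just under the cutoff of 1, and it passed it with a pseudocount of 0.1 (1.04), after rescaling to TPM (transcript shares of a fixed total, 1.05) and in limma-voom on recovered counts (1.059).

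The heavy chain therefore rose more than either light chain of the set in these libraries. Log2 ratios between genes were taken of FPKM + 1, which understates the rise of *SLC7A11*, a gene with low values. The log2 ratio of *SLC7A5* to *SLC3A2* fell by 0.65 in PP, and that of *SLC7A11* to *SLC3A2* fell by 0.54, with no overlap between the 3 PP and 3 PBS libraries. Over the alternative settings the differences, PP minus PBS, were -0.68 to -0.60 and -0.61 to -0.405, the last with a pseudocount of 0.1. In plain FPKM, *SLC3A2* was on average 40.7 times *SLC7A11* in PBS and 53.3 times in PP. Each comparison of pairs was an exact two-sided permutation test over the libraries, and with 3 against 3 the smallest p it allows is 0.1, so no pair could pass 0.05. Both pairs were at this smallest value, with an adjusted p of 0.125 over the 5 pairs compared. The log2 ratio of *SLC7A11* to *SLC7A5* differed by 0.11, PP minus PBS, with the same exact p of 0.1. Over the alternative settings it ranged from 0.0697, without PP replicate 3, to 0.22, with a pseudocount of 0.1.

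A sum over 6 light chain genes that pair with *SLC3A2* (*SLC7A5*, *SLC7A6*, *SLC7A7*, *SLC7A8*, *SLC7A10* and *SLC7A11*) was 25.9, 26.1 and 25.8 FPKM in PBS and 40.6, 40.8 and 41.2 FPKM in PP. *SLC3A2* was 5.96, 6.10 and 6.12 times this sum in PBS and 11.3, 10.3 and 9.81 times it in PP. The ratio was thus higher in every PP library, with means of 6.06 ± 0.088 and 10.5 ± 0.766 (SD, n = 3), given here as a description. Of the other light chains, *SLC7A6*, which encodes y+LAT2 and exchanges arginine for neutral amino acids, fell from 6.44 to 5.42 FPKM, and *SLC7A7*, *SLC7A8* and *SLC7A10* were below the filter in both treatments.

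**Figure D2:**
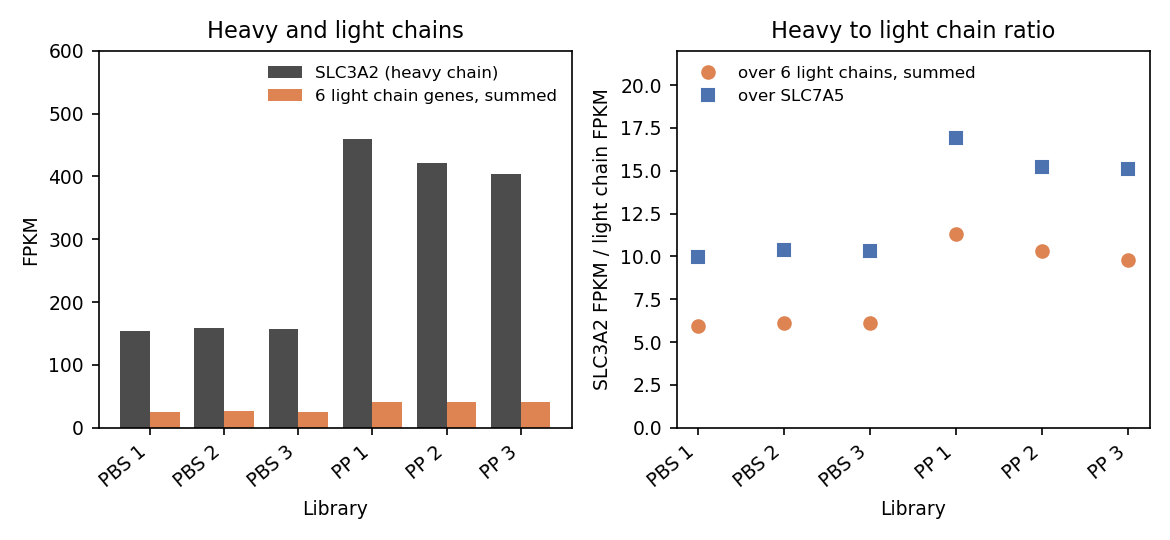
Left, FPKM of *SLC3A2* and the summed FPKM of 6 light chain genes in each library, as bars from 0. Right, *SLC3A2* FPKM divided by the summed light chains (circles) and by *SLC7A5* (squares) in each library. The ratio to the summed light chains lies between 5.957 and 6.115 in PBS libraries and between 9.812 and 11.32 in PP libraries.

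*SLC7A1* encodes CAT1, the cationic transporter that brings in arginine, lysine and ornithine. It had 21.1, 21.8 and 21.4 FPKM in PBS and 37.1, 37.1 and 36.99 FPKM in PP. The PP libraries were nearly equal, and the rise of 0.76 on the log2 scale (SE 0.04, limma adjusted p = 3.25e-08) corresponded to an FPKM ratio of 1.73. A related gene outside the set, *SLC7A2*, encodes the cationic transporter CAT2 and had the largest increase of all 181 SLC genes tested. It rose from 1.26 ± 0.0992 to 10.9 ± 0.623 FPKM (SD, n = 3), a log2 fold change of 2.40 (SE 0.06, limma adjusted p = 5.55e-10), so *SLC7A1* went from 17.1 times the level of *SLC7A2* in PBS to 3.40 times in PP.

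*SLC1A4* and *SLC1A5* encode ASCT1 and ASCT2, sodium-dependent exchangers of small neutral amino acids, with ASCT2 best known for glutamine. *SLC1A4* had 30.5, 30.1 and 30.2 FPKM in PBS and 51.8, 48.8 and 49.3 FPKM in PP, a rise of 0.70 on the log2 scale (SE 0.04, limma adjusted p = 7.49e-08). *SLC1A5* had 34.6, 38.6 and 37.6 FPKM in PBS and 46.1, 43.1 and 41.3 FPKM in PP. Its groups did not overlap but came close, the lowest PP library being 1.07 times the highest PBS library. With a log2 fold change of 0.23 (SE 0.05, limma adjusted p = 0.00269), *SLC1A5* had the smallest change of the 9 members.

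The order of these exchangers was reversed between the treatments. *SLC1A4* was at 0.881, 0.779 and 0.803 times the FPKM of *SLC1A5* in PBS and at 1.12, 1.13 and 1.19 times in PP. *SLC1A4* was thus the lower of the pair in every PBS library and the higher in every PP library. The log2 ratio of *SLC1A5* to *SLC1A4* fell by 0.48 (exact two-sided permutation p = 0.1, adjusted p = 0.125).

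*SLC38A1* and *SLC38A2* encode SNAT1 and SNAT2, which use sodium to build up alanine, glutamine and other neutral amino acids. *SLC38A1* had 31.6, 31.2 and 31.3 FPKM in PBS and 43.0, 43.6 and 45.8 FPKM in PP. *SLC38A2*, the second most abundant member in both treatments, had 41.1, 41.1 and 39.8 FPKM in PBS and 58.6, 56.0 and 59.8 FPKM in PP. Both were higher in all PP libraries and by similar amounts, with log2 fold changes of 0.48 (SE 0.04, limma adjusted p = 1.32e-06) and 0.51 (SE 0.04, limma adjusted p = 9.46e-07). The ratio of *SLC38A2* to *SLC38A1* FPKM was 1.30 ± 0.0229 in PBS and 1.32 ± 0.0402 in PP (SD, n = 3). The difference in their log2 ratio was 0.025 (exact two-sided permutation p = 0.5) and ranged from 0.00071 to 0.042 over the alternative settings.

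*SLC6A9* encodes GLYT1, which takes up glycine with sodium and chloride. It had 4.12, 3.89 and 3.87 FPKM in PBS and 17.3, 19.96 and 17.7 FPKM in PP, from 414 to 463 and 1932 to 2189 recovered counts. It showed the largest change of the set, with means of 3.96 ± 0.138 and 18.3 ± 1.43 FPKM (SD, n = 3), a ratio of 4.63 and a log2 fold change of 1.96 (SE 0.06, limma adjusted p = 1.48e-09). Only *SLC7A2* rose more among the SLC genes tested, and *SLC6A9* ranked 37 of the 11726 genes by log2 fold change. By level, it moved from rank 140 to rank 39 of the 181 SLC genes. *SLC6A9* overlaps *CCDC24* on the opposite strand, and *CCDC24* moved the other way, from 44.6 to 26.5 FPKM (log2 fold change -0.73). Whether the counting used the strand was not given in the sources used here, so reads of overlapping genes on opposite strands may not have been told apart.

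**Figure D3:**
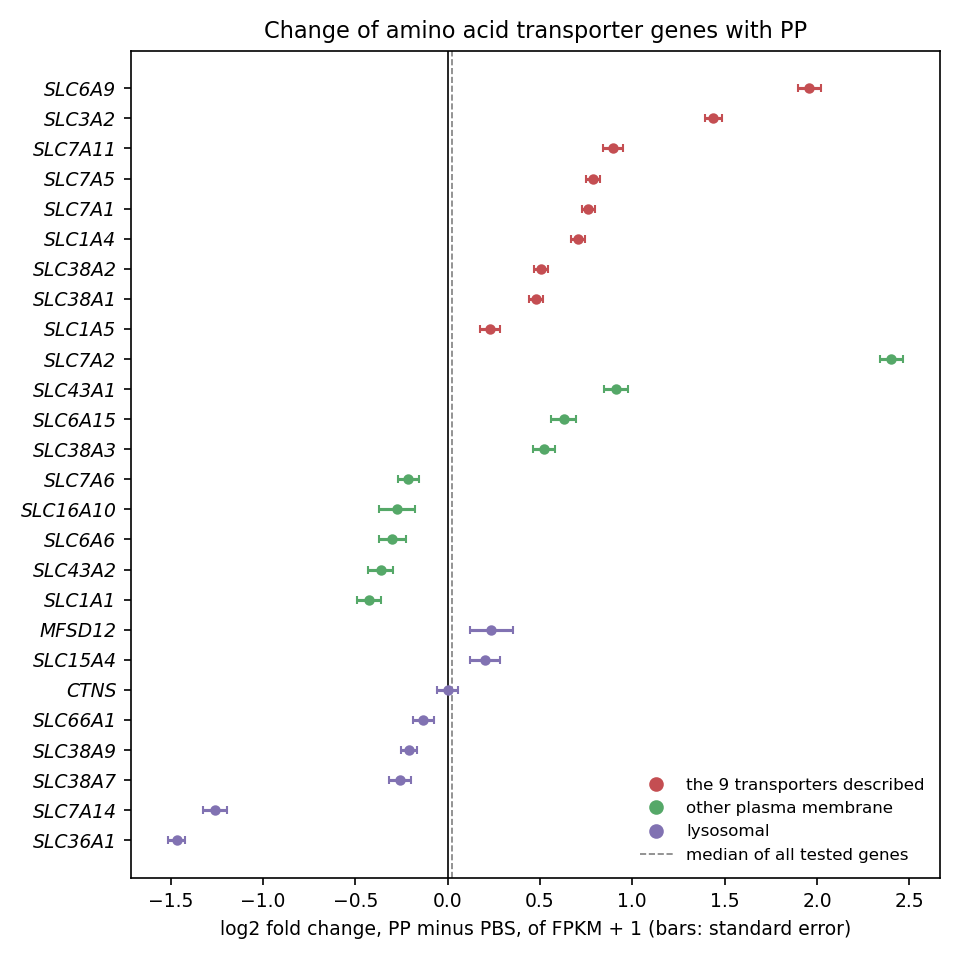
Log2 fold change of FPKM + 1, PP minus PBS, for each of the 9 measured transporters, with bars for the standard error of the limma fit. The other plasma membrane and the lysosomal amino acid transporters that passed the filter are shown beside them. A dashed line marks the median of all tested genes. Of the 9, *SLC6A9* (1.96) and *SLC3A2* (1.44) lie past the cutoff of 1, *SLC7A11* (0.90) lies just under it, and *SLC1A5* (0.23) is nearest to 0.

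FPKM is a value per length, so levels were set side by side between genes. The comparison is rough, because how these values were made is not settled and reads of overlapping genes may not have been told apart. In PBS cells the order from high to low was *SLC3A2*, *SLC38A2*, *SLC1A5*, *SLC38A1*, *SLC1A4*, *SLC7A1*, *SLC7A5*, *SLC6A9* and *SLC7A11*, and of the neighbours in this order only *SLC6A9* and *SLC7A11* overlapped between libraries. In PP cells *SLC1A4* and *SLC1A5* had changed places, and only *SLC38A1* and *SLC1A5* overlapped. *SLC6A9* and *SLC7A11*, which overlapped in PBS, were apart in PP, at 17.3 to 19.96 and 7.81 to 8.42 FPKM.

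The 9 members summed to 336.8, 345.1 and 340.7 FPKM in PBS and 748.3, 704.9 and 689.9 FPKM in PP. *SLC3A2* made up 46.1% ± 0.181 of this sum in PBS and 59.9% ± 1.43 in PP (SD, n = 3), and the share of *SLC6A9* went from 1.16% to 2.57%. The share of *SLC1A5* went from 10.8% to 6.09%, although its own FPKM was higher. Without *SLC3A2* the members summed to 183.9 ± 1.85 FPKM in PBS and 286.4 ± 2.49 FPKM in PP (SD, n = 3), so the higher sum did not rest on the heavy chain alone.

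The other amino acid transporters of the plasma membrane moved in both directions. Of 27 such genes listed, 23 had a row and 9 passed the filter. Over all genes tested 38.1% rose and 34.4% fell, while of these 9 genes 4 rose and 5 fell, with a median log2 fold change of -0.21. Beside *SLC7A2*, the genes that rose were *SLC43A1*, which encodes the large neutral amino acid carrier LAT3 (5.04 to 10.4 FPKM, log2 fold change 0.91), *SLC6A15*, which encodes a carrier of branched-chain amino acids and proline (0.769 to 1.73 FPKM, 0.63), and *SLC38A3*, which encodes the glutamine carrier SNAT3 (4.24 to 6.51 FPKM, 0.52). Among those that fell were *SLC1A1*, which encodes the glutamate and cysteine carrier EAAT3 (2.95 to 1.94 FPKM, -0.43), *SLC43A2*, which encodes LAT4 (1.97 to 1.31 FPKM, -0.36), and *SLC6A6*, which encodes the taurine carrier (6.05 to 4.71 FPKM, -0.30). Genes of the same family thus differed in direction, with *SLC7A6* lower beside its relatives *SLC7A5*, *SLC7A11*, *SLC7A1* and *SLC7A2*, and *SLC43A2* lower beside *SLC43A1*. *SLC16A10*, which encodes the aromatic amino acid carrier TAT1, also fell (log2 fold change -0.27, limma adjusted p = 0.029). That call was lost in 6 of 14 alternative settings, among them those without each of the 3 PBS libraries and without PP replicate 1 or 2, with adjusted p up to 0.107. Of the 9 genes counted, *SLC6A15* averaged below 1 FPKM in PBS and *SLC16A10* in PP (0.863 FPKM). Each therefore passed the filter only through the treatment in which it was higher.

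Amino acid carriers of the lysosome mostly fell or did not pass the test. Of 10 listed, 8 were tested, and 1 rose, 4 fell and 3 did not pass the test. Their median log2 fold change was -0.17, and over all genes tested 38.1% rose and 34.4% fell. *SLC36A1*, which encodes the proton-coupled carrier PAT1, fell from 12.1 ± 0.223 to 3.73 ± 0.0524 FPKM (SD, n = 3; log2 fold change -1.47, limma adjusted p = 2.31e-09). *SLC7A14*, a lysosomal relative of the cationic transporters, fell from 3.30 to 0.797 FPKM (-1.26) and passed the filter only through its PBS libraries. *SLC38A7* and *SLC38A9*, lysosomal relatives of *SLC38A1* and *SLC38A2*, fell by 0.26 and 0.21 on the log2 scale, and SLC38A9 is known as an arginine sensor for mTORC1. The gene that rose was *SLC15A4*, a histidine and peptide carrier, at a log2 fold change of 0.20 with a limma adjusted p of 0.0497, a call lost in 10 of 15 alternative settings, where its adjusted p reached 0.191. Those settings included leaving out PBS replicate 1 or 2 and any PP library.

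Across the whole SLC family, 307 genes had a row and 181 were tested. Without the 9 members, 42 of 172 were higher (24.4%) and 76 were lower (44.2%), against 38.1% and 34.4% of all genes tested. *SLC6A9* and *SLC3A2* ranked 2 and 3 of the 181 by log2 fold change, *SLC7A11* ranked 8, and *SLC1A5*, the lowest member, ranked 38. Beside *SLC7A2* and *SLC43A1*, family members outside the set with large increases included the mitochondrial nucleotide carrier *SLC25A36* (47.2 to 100.5 FPKM, log2 fold change 1.07) and *SLC22A15* (0.945 to 2.74 FPKM, 0.94). *SLC22A15* passed the filter only through its PP libraries. The largest decreases, at -1.76 to -1.47, were those of the phosphate carrier *SLC34A2*, *SLC22A23*, the potassium-dependent sodium-calcium exchanger *SLC24A3*, the mitochondrial carrier *SLC25A48* and *SLC36A1*.

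**Figure D4:**
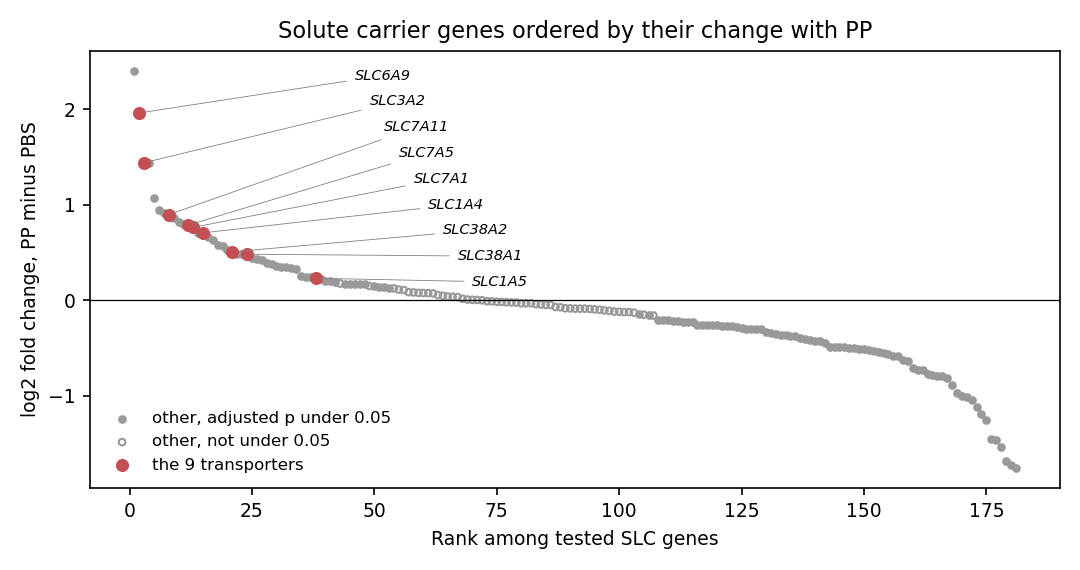
Log2 fold change of FPKM + 1, PP minus PBS, of the 181 tested SLC genes in rank order, with the 9 members marked and named. All 9 members lie in the upper part, from rank 2 (*SLC6A9*) to rank 38 (*SLC1A5*), while 76 SLC genes outside the set were lower.

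Genes of the pathways that transporters feed or answer to were read from lists of general knowledge. Over all genes tested, 38.1% rose and 34.4% fell. Of 16 tested regulators and targets of the amino acid response, 13 rose, 1 fell and 2 did not pass the test, with a median log2 fold change of 1.24. The largest increases were those of *TRIB3*, a pseudokinase that binds ATF4 (19.1 to 171.1 FPKM, log2 fold change 3.09), *ATF3*, a stress-induced transcription factor (19.1 to 132.4 FPKM, 2.73), and *PPP1R15A*, which directs dephosphorylation of the initiation factor eIF2 (35.2 to 207.9 FPKM, 2.53). *EIF2AK2*, which encodes the kinase PKR, fell by 0.20. No member of the transporter set had a change as large as these 3 genes.

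The glutathione and thioredoxin genes, which serve the cell's thiol redox balance, were mixed, with 3 higher, 4 lower and 2 that did not pass the test among 9. Of all genes tested, 38.1% were higher and 34.4% lower. *GCLC* and *GCLM*, the subunits of the enzyme for the first step of glutathione synthesis, rose from 23.0 to 51.6 FPKM (log2 fold change 1.13) and from 6.61 to 11.1 FPKM (0.67). *TXNRD1*, thioredoxin reductase, rose from 71.5 to 132.1 FPKM (0.88), whereas its substrate *TXN* fell from 135.3 to 83.5 FPKM (-0.69). *GSS*, the enzyme for the second step, and *GGCT*, which breaks down gamma-glutamyl dipeptides, fell by 0.41 and 0.29 on the log2 scale.

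Of 31 genes for amino acid sensing by mTORC1, 12 rose, 9 fell and 10 did not pass the test, and the median log2 fold change was 0.011. Over all genes tested 38.1% rose and 34.4% fell, with a median of 0.02, so these counts are not read as a feature of the list. *SESN2*, which encodes a leucine sensor that restrains mTORC1 and is also in the amino acid response list, rose from 8.15 to 36.1 FPKM (2.02). *KICS2*, a part of the KICSTOR complex, and *SESN1* rose by 0.90 and 0.57 on the log2 scale. *CASTOR2*, of the arginine sensor family, and *LAMTOR1* and *LAMTOR4*, of the Ragulator complex that anchors mTORC1 signalling at the lysosome, fell by 0.77, 0.56 and 0.47.

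The 5 genes whose log2(FPKM + 1) followed *SLC6A9* most closely over the 6 libraries were *RPL32*, a ribosomal protein gene (Pearson r = 0.99994), *FTH1*, the ferritin heavy chain (0.99965), *RIOK1* (0.99963), *CLDN15* (0.99953) and *WARS1*, the tryptophanyl-tRNA synthetase (0.99938). These values are a description over libraries that fall into 2 treatments, and 766 of the 11725 other genes tested had an r above 0.99. The 5 genes differed from *SLC6A9* in the size of the change, with log2 fold changes of 0.33, 1.008, 0.82, 0.56 and 1.35.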

How the data were processed

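The authors deposited 1 table of FPKM for 17177 genes by symbol. The study's methods name Bowtie, hg19, RSEM, Cufflinks and HTSeq, whereas the submitters' processing notes list fastp, HISAT2, HTSeq and GRCh38, so how these FPKM values were made is not settled. FPKM is relative to each library's total. Differences were fitted on log2(FPKM + 1) with limma 3.58.1 in R 4.3.3 (lmFit, eBayes with trend) over the 11726 genes that averaged 1 FPKM or more, with Benjamini-Hochberg adjustment. Whole counts were recovered for 16401 genes from the steps of each gene's values, within 0.01 of a count. Motifs and exact permutation tests were computed in Python 3.11.15 with scipy 1.17.1. The steps were tested on simulated data. The members and lists were chosen with earlier results of these data known. The 6 light chains and the overlapping genes were picked after values were seen. Genes were named by rule: all members, all cell type markers, up to 3 called genes at each end of each list, 5 SLC genes at each end, and the 5 genes most like *SLC6A9*. The text gives some of them only in sums or counts, and the results for some genes are not reported here. No reads were analysed here.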

Additional observations from a re-analysis of the deposited data

How the results depend on the processing

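The alternatives changed the pseudocount, the filter, the scaling, the eBayes trend and the libraries included, or fitted recovered counts with limma-voom. In all 15 alternatives 9 members were higher and 0 lower at an adjusted p under 0.05, and 2 or 3 passed the cutoff, the third being *SLC7A11*. Leaving out 1 library at a time gave log2 fold changes of 1.90 to 1.996 for *SLC6A9* and 0.18 to 0.27 for *SLC1A5*, which had the highest adjusted p of any member in any alternative (0.0128). Over the alternatives 44 to 57 SLC genes were higher and 52 to 83 lower, but the number of genes tested was not the same in all. The 52 came with a filter of 5 FPKM, where 3031 of 8660 genes tested were lower. The 83 came with no filter, where 4415 of 16909 genes tested were lower. The 44 came without PBS replicate 2, where 4152 of 11726 genes were higher. The 57 came after rescaling to TPM, where 4953 of 11726 genes were higher. Deviations from the treatment means correlated at -0.211, -0.014 and -0.127 between same-numbered libraries and at -0.0669 to 0.182 between differently numbered ones. The labels do not say whether same-numbered libraries belong together, and with 3 libraries per treatment these correlations cannot decide it. With the replicate block, 9 members were still higher, and 4260 genes were higher and 3878 lower in all. Depth limited no member, the lowest being *SLC6A9* with 414 counts.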
